A study of Mus musculus with 6 samples.

Results

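The 39 protein-coding Hox genes were followed through nuclei of the lumbar spinal cord. They were taken as every row of the count matrices whose gene symbol is Hox, a cluster letter from a to d and a number, which gave 39 of the 32285 genes counted. Hox genes encode homeodomain transcription factors that lie in 4 clusters, and the order of the genes along each cluster follows the order in which they are used from head to tail. In the spinal cord their combinations set the identity of motor neurons and interneurons at neck, thoracic and lumbar levels, with TALE proteins of the PBX and MEIS families as DNA-binding partners. Genes with the same number in different clusters are paralogues and are counted here from the head end, paralogue number 1, to the tail end, paralogue number 13.

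The study used single-nucleus RNA sequencing (10x Genomics 3′ chemistry, which counts each captured transcript once through a unique molecular identifier, UMI) of lumbar cord from C57BL/6 mice aged 110 days. Every animal carried the SOD1G93A transgene, a mutant superoxide dismutase that gives a mouse model of amyotrophic lateral sclerosis, and no animal without the transgene was analysed here. The 3 PHD1+/+ animals had intact Egln2, the gene of the oxygen-sensing prolyl hydroxylase PHD1, and the 3 PHD1-/- animals lacked it. The animals formed 3 littermate pairs, and a replicate number marks a pair. Below, 3 values for a genotype are always those of replicates 1, 2 and 3 in that order.

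After filtering, 41906 nuclei and 146898504 UMIs remained, of which 116579 were Hox UMIs, between 10731 and 25741 in a library. Both replicate 1 libraries stood apart. Their barcodes began with a different series, and their median nucleus had 1363 and 1365 UMIs against 2290.5 to 2902 in the other 4. The doublet caller marked only 0 and 1 of their nuclei, so doublets may remain in them. Among genes with at least 10 UMIs in 3 libraries, both replicate 1 libraries lay above or below all the other 4 for 66% of all genes and 65.7% of Hox genes. Libraries shared at most 86 barcodes, between the replicate 1 pair, which is 1.30% of the smaller library. As a check of the labels, Egln2 over all nuclei was 29.6, 18.8 and 16.4 CPM in PHD1+/+ and 9.66, 9.04 and 10.1 CPM in PHD1-/-, where CPM is the UMI count scaled to the total of the library or class. The genotypes did not overlap, with a log2 fold change of -1.17 (SE 0.26, edgeR adjusted p = 1.00, unadjusted p = 0.00291). Neuron markers summed to 26066 CPM in neurons and 1219.6 CPM in microglia. Of 10 homeobox genes in a list labelled rostral, among them Otx2 and En1, 2 passed the low-count filter over all nuclei. That count was not used as a check of the tissue.

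The 4 clusters lie at chr6:52155590-52260880 (Hoxa, 11 members), chr11:96194316-96368256 (Hoxb, 10 members), chr15:102921103-103036852 (Hoxc, 9 members) and chr2:74668310-74765142 (Hoxd, 9 members) in the GRCm38 annotation. Transcription units of neighbouring Hox genes overlap. Of the 39, 11 overlap another counted gene on the same strand: Hoxa3, Hoxa4, Hoxa5, Hoxa6, Hoxc5, Hoxc6, Hoxc8, Hoxc9, Hoxc10, Hoxd3 and Hoxd4. The gene of origin of a UMI can be unclear there, so their values are uncertain. A gene on the other strand overlaps 14 members, 6 of which are in both sets, and 20 members overlap none.

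RefSeq promoter windows were at hand for 22 of the 39 members. The 250 bases before the start are shown for 4 genes whose pattern over cell types carries the results: Hoxb8, at a like level in most classes but at most 8.31 CPM in any library of cholinergic neurons, Hoxd4 and Hoxd8, kept in oligodendrocytes, and Hoxd11, kept in cholinergic neurons. Capitals mark TTTATG (or CATAAA on the other strand), the core bound by CDX factors that act upstream of Hox genes, TATAAA (or TTTATA), the TATA box, and TGATTNAT (or ATNAATCA), a site type bound by HOX with PBX. Sequences run 5′ to 3′ along the gene's strand in GRCm38.p6, and none of the 4 windows overlaps an exon of the GENCODE M21 annotation.
Hoxb8, chr11:96281655-96281904 (plus strand): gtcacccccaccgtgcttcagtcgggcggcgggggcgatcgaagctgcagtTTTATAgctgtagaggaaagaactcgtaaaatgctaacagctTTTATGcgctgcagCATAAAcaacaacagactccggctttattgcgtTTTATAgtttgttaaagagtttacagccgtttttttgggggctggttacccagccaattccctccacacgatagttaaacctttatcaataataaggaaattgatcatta
Hoxd4, chr2:74721728-74721977 (plus strand): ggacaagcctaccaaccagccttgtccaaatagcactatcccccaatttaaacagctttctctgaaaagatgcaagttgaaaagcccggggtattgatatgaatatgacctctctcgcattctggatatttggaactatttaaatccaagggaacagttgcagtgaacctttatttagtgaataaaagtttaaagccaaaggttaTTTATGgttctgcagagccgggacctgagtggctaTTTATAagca
Hoxd8, chr2:74704365-74704614 (plus strand): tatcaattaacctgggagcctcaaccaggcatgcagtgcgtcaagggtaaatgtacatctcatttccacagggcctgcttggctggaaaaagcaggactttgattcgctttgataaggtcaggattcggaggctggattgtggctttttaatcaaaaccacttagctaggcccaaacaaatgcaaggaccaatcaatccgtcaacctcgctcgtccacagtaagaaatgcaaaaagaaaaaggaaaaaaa
Hoxd11, chr2:74682073-74682322 (plus strand): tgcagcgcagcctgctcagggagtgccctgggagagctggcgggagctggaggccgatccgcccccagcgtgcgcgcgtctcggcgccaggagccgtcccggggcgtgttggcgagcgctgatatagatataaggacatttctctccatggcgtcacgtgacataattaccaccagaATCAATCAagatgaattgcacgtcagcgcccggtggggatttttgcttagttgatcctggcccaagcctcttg
The Hoxb8 window held TTTATG 2 times and TATAAA 2 times, and the Hoxd4 window held each of these 2 motifs 1 time. Neither window held TGATTNAT. RefSeq lists 2 starts for Hoxd11. The Hoxd11 window shown held a single TGATTNAT match, while the window at that other start, chr2:74679308-74679557, overlaps a Hoxd11 exon and held a single TTTATG match and no TGATTNAT, and the Hoxd8 window held none of the 3 motifs. Searching both strands of the same 250 bases, TTTATG occurred in 5 of 24 Hox windows and 10.8% of the 32817 windows of all genes, TATAAA in 4 of 24 Hox windows and 12.4% of the 32817 windows of all genes, and TGATTNAT in 2 of 24 Hox windows and 2.83% of the 32817 windows of all genes. A match describes letters in the window and not a bound site.

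Over all nuclei, the summed Hox level was 793, 843 and 772 CPM in PHD1+/+ and 762, 784 and 785 CPM in PHD1-/-, a mean of 789.9 ± 28 (SD, n = 6), and the genotypes overlapped. All 39 members had at least 1 UMI: 22 had a mean of at least 10 CPM, 10 lay between 1 and 10 CPM, and 7 lay below 1 CPM. The 12 members with the most CPM held 70.6% of Hox UMIs. Here 3′ UMI counts are not scaled by transcript length, so the order is one of counts and not of levels per length.

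Hoxc8, which helps set the identity of brachial motor pools, was at 44.7, 67.1 and 60.8 CPM in PHD1+/+ and 55.2, 69.9 and 66.2 CPM in PHD1-/-. Hoxb6 was at 65.9, 50.8 and 48.2 CPM in PHD1+/+ and 61.5, 43.1 and 47.9 CPM in PHD1-/-. Hoxa9, a gene of the trunk domain, was at 69.1, 43.4 and 37.9 CPM in PHD1+/+ and 64.5, 43.2 and 44.4 CPM in PHD1-/-. For Hoxc8 the replicate 1 libraries were the lowest, and for Hoxb6 and Hoxa9 they were the highest. Hoxc4 was at 30.8, 65.1 and 51.7 CPM in PHD1+/+ and 33.9, 62 and 54.4 CPM in PHD1-/-. Hoxa7 was at 58.9, 43.1 and 42.5 CPM in PHD1+/+ and 50.2, 41.9 and 42.7 CPM in PHD1-/-. Hoxd3 was at 34.9, 53.2 and 49.5 CPM in PHD1+/+ and 35.7, 49.5 and 49.3 CPM in PHD1-/-. The genotypes overlapped for each, while the replicate 1 libraries were lowest for Hoxc4 and Hoxd3 and highest for Hoxa7. Hoxc5, which with Hoxa5 acts in phrenic motor neurons of the neck cord, was at 19.6, 63.4 and 52.3 CPM in PHD1+/+ and 26.9, 56.8 and 50.4 CPM in PHD1-/-. Hoxb3 was at 28.6, 55.4 and 51 CPM in PHD1+/+ and 30.2, 52.1 and 51.3 CPM in PHD1-/-. Hoxd4 was at 60.7, 36.9 and 32.6 CPM in PHD1+/+ and 63.7, 30.5 and 32.7 CPM in PHD1-/-. Hoxc5 showed the largest gap downward among these 12, with a replicate 1 mean 0.418 times that of replicates 2 and 3, and Hoxd4 the largest gap upward, at 1.87 times. Hoxc6, a gene of the forelimb-level motor column, was at 27.6, 57.7 and 40.9 CPM in PHD1+/+ and 28.7, 48 and 46.2 CPM in PHD1-/-. Hoxb8, known for dorsal horn circuits and for a lineage of microglia, was at 47.2, 42.3 and 37.5 CPM in PHD1+/+ and 34.2, 38.8 and 34.4 CPM in PHD1-/-. Hoxa3 was at 17.2, 40.2 and 36 CPM in PHD1+/+ and 24.5, 38.2 and 41.3 CPM in PHD1-/-. Hoxb8 was the member of the 12 whose replicate 1 libraries did not separate from the rest. The part of depth, of the different barcode series and of the litter in these gaps was not tested.

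**Figure D1:**
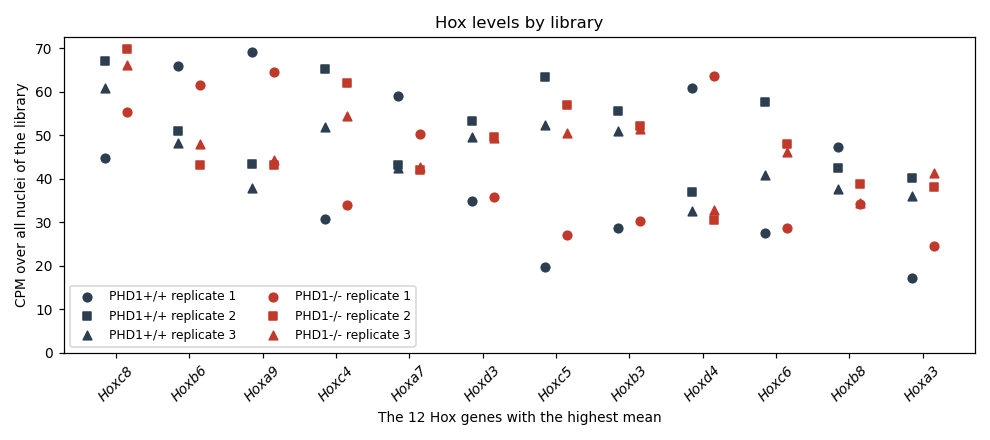
Level of the 12 Hox genes with the highest mean over all nuclei, in CPM (y axis), for each library. Colour gives the genotype and the symbol the replicate number. Circles (replicate 1) lie apart from squares and triangles for most genes, from Hoxc5 at 19.6 and 26.9 CPM to Hoxd4 at 60.7 and 63.7 CPM, and the genotypes overlap.

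By paralogue number, the 28 of 39 members with numbers 3 to 11 held 97.3% of Hox UMIs. The 5 members with numbers 1 and 2 held 1.9%, and the 6 members with numbers 12 and 13 held 0.811%. Within numbers 3 to 11, Hoxa4, Hoxa6 and Hoxa11 were at 1.31, 2.78 and 1.51 CPM. At the head end, Hoxb2 was at 12.8 ± 3.17 CPM (SD, n = 6) and accounted for most of the anterior signal. Hoxa2 was at 1.58 ± 0.359 CPM (SD, n = 6) and Hoxd1 at 0.745 ± 0.625 CPM (SD, n = 6). Hoxb1, a hindbrain gene, had 5 UMIs in all. Hoxb1, Hoxd12 and Hoxd13 stayed under 1 CPM in every named class. Summed over paralogues, the level was 123 CPM for number 3, 118 CPM for number 4, 108 CPM for number 8 and 102 CPM for number 9. It was 52.6 CPM for number 10, 27.1 CPM for number 11, 2.41 CPM for number 12 and 4.07 CPM for number 13. Of the genes known for patterning the lumbar level itself, Hoxa10 was at 19 ± 4.68 CPM (SD, n = 6), Hoxc10 at 25.8 ± 4.65 CPM (SD, n = 6), Hoxd10 at 7.82 ± 1.7 CPM (SD, n = 6), Hoxc11 at 6.62 ± 1.28 CPM (SD, n = 6) and Hoxd11 at 19 ± 4.33 CPM (SD, n = 6). They were read alongside genes with more anterior borders.

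Posterior genes were read by litter. Hoxc13 was at 2.49, 1.54 and 5.49 CPM in PHD1+/+ and 1.63, 2.37 and 4.9 CPM in PHD1-/-. Hoxc12 was at 1.86, 1.44 and 3.98 CPM in PHD1+/+ and 2.13, 1.94 and 2.92 CPM in PHD1-/-. Hoxa13 had 26 UMIs in the replicate 3 pair and 3 in the other 4 libraries together. Both replicate 3 libraries lay above all others for these 3 of 36 Hox genes with at least 20 UMIs, 8.33%, and for 8.60% of all genes with as many UMIs, so the count was near the background. Hoxb13 had 59 UMIs in the replicate 3 pair and 36 in the other 4, with overlapping levels. Hoxd12 and Hoxd13 overlapped too. These genes were picked out after their values were seen.

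Cell classes were named from marker genes after clustering without any gene of the Hox clusters, so a name such as astrocyte means astrocyte-like by its markers. Left out of the classes were 2305 unnamed nuclei and 1046 nuclei with markers of both neurons and glia, of which 503 and 412 came from the replicate 1 libraries. A further 996 neurons, called unresolved, fell in no transmitter class and were counted only among all neurons. Their summed Hox level was 1006 to 1043 CPM with a single library left out, and Hoxc8 was highest there, at 112 CPM. They are not in the order that follows. Over the named classes, summed Hox levels were 1239 ± 164 CPM in fibroblasts, 1027 ± 143 CPM in ependymal cells, 989 ± 52.9 CPM in excitatory neurons, 918 ± 44.4 CPM in inhibitory neurons, 905 ± 122 CPM in mural cells and 899.8 ± 94.3 CPM in astrocytes (SD, n = 6 for each). They were 564 ± 86.4 CPM in oligodendrocyte precursors, 549.7 ± 105 CPM in endothelial cells, 412 ± 84.1 CPM in cholinergic neurons and 389 ± 82.3 CPM in Schwann cells. The lowest were newly formed oligodendrocytes at 287 ± 149 CPM, oligodendrocytes at 264 ± 65.9 CPM and microglia at 244 ± 71.8 CPM. Astrocytes and precursors were the 1 pair of neighbours in this order whose means lay further apart than the sum of their SDs. The classes share libraries, and the order was not tested.

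With every nucleus thinned to 1000 UMIs, and shallower nuclei left out, a Hox UMI was seen in 62% ± 2.2 of neurons, 58.1% ± 4.41 of astrocytes, 41.1% ± 5.26 of oligodendrocyte precursors, 31.4% ± 10.9 of cholinergic neurons and 22.4% ± 3.16 of oligodendrocytes (SD, n = 6). Microglia, which arise outside the body axis, gave 17.9% ± 3.98. That share served as a reference level, and how much of it is background RNA was not tested. By library it was 25.4, 18.2 and 16.6% in PHD1+/+ and 13.5, 17.1 and 16.6% in PHD1-/-. Oligodendrocytes were at 28.1, 22.4 and 22% in PHD1+/+ and 22.7, 19 and 20.1% in PHD1-/-, above microglia in 6 of 6 libraries at this depth. Thinned to 2000 UMIs, they were below microglia in PHD1-/- replicate 1 (35.1 against 47.1%, from 17 microglia) and PHD1-/- replicate 2 (30.9 against 31.9%). Unthinned, they were below in PHD1-/- replicate 1 (24.1 against 24.3%). Without thinning, the shares were 94.6% ± 5.3 in neurons, 96.4% ± 4.08 in cholinergic neurons, 32.6% ± 4.65 in oligodendrocytes and 25.8% ± 1.32 in microglia. Median depths of the unthinned libraries ran from 2517 to 7068 UMIs in neurons and from 696 to 1498 UMIs in microglia. Thinning left out 4700 nuclei of PHD1+/+ and 3432 of PHD1-/-.

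**Figure D2:**
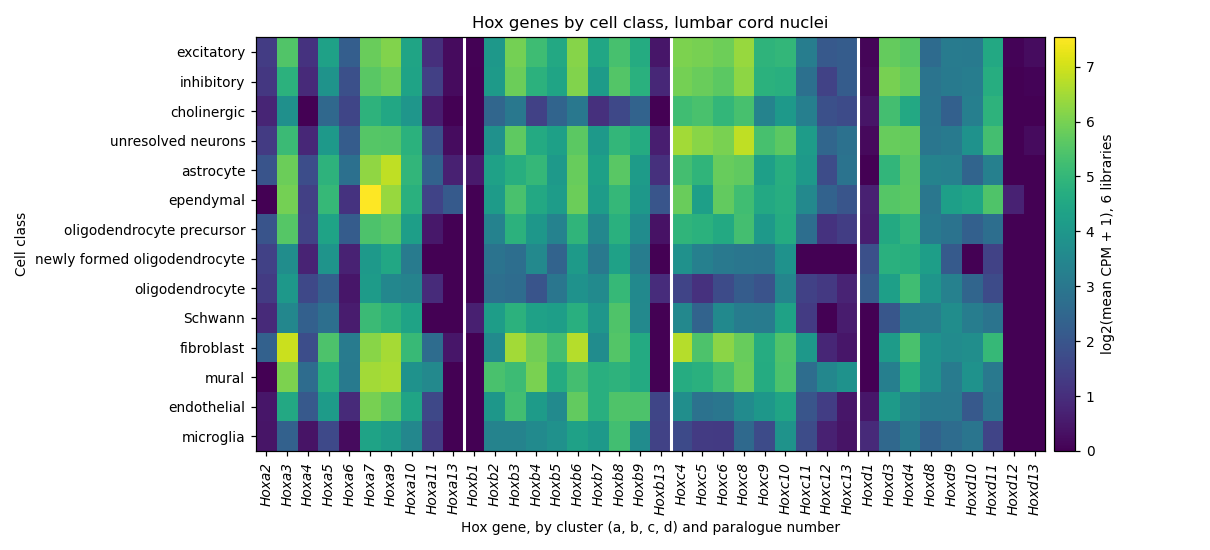
Mean level of Hox genes (x axis, ordered by cluster and paralogue number, white lines between clusters) in 14 cell classes (y axis), as log2(mean CPM + 1) over 6 libraries. Dark columns include Hoxb1, Hoxd1 and the tail members Hoxa13, Hoxb13, Hoxd12 and Hoxd13, and also Hoxa4 and Hoxa6 inside the Hoxa cluster. The Hoxc block apart from Hoxc10 is dark in oligodendrocytes and microglia, and the Hoxb block is dark in cholinergic neurons.

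The clusters did not contribute alike in each class. Hoxc genes made 34.5% of the summed Hox level in neurons, 29.5% in oligodendrocyte precursors and 9.44% in oligodendrocytes. Hoxd genes made 16.1% in neurons and 33.6% in oligodendrocytes. Hoxb genes made 55% in microglia, 47.1% in Schwann cells and 7.76% in cholinergic neurons. Hoxa genes made 38.8% in ependymal cells and 35.5% in astrocytes, against 20.3% in neurons. Single genes peaked in different classes. Hoxa7 reached 185 ± 44.6 CPM (SD, n = 6) in ependymal cells. Hoxa3 reached 120.0 ± 72.2 CPM (SD, n = 6) in fibroblasts. Hoxa9 reached 112 ± 35.7 CPM (SD, n = 6) in astrocytes. Hoxd11 was highest in ependymal cells, at 43.1 ± 9.79 CPM (SD, n = 6), and Hoxb4 in mural cells, at 63.4 ± 20.4 CPM (SD, n = 6). Hoxd1 was highest in oligodendrocytes, at 3.45 ± 2.45 CPM (SD, n = 6).

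Neurons and oligodendrocytes differed in nearly every Hox gene tested. Of 28 members that passed the low-count filter, 26 were higher in neurons and 1 lower, while 41.9% of all genes tested were called higher and 38.9% lower (edgeR quasi-likelihood test, library as block, adjusted p under 0.05). The median log2 fold change was 1.64 over the Hox genes and 0.03 over all genes. Levels did not overlap between the classes for 20 members, against 46.5% of all genes. All 9 Hoxc members were higher, with a median of 3.54. Hoxc5 was at 29.4, 84.9 and 66.7 CPM in PHD1+/+ and 35.6, 75.3 and 65.5 CPM in PHD1-/- in neurons. In oligodendrocytes it was at 0.782, 1.58 and 0.33 CPM in PHD1+/+ and 1.6, 1.32 and 1.08 CPM in PHD1-/-, which rests on 26 UMIs. The classes were far apart in each library, with a log2 fold change of 5.78 (SE 0.17, adjusted p = 9.66e-10). Hoxc4, which marks the upper cord, gave 5.28 (SE 0.23, adjusted p = 7.84e-09) and was higher in 6 of 6 libraries. Hoxc8 gave 4.56 (SE 0.23, adjusted p = 2.58e-08), Hoxb3 3.40 (SE 0.12, adjusted p = 2.50e-09), Hoxa9 2.60 (SE 0.13, adjusted p = 2.06e-08) and Hoxd3 1.61 (SE 0.08, adjusted p = 2.10e-08), each higher in 6 of 6 libraries. The remaining 20 called higher had larger adjusted p-values and ranged from Hoxb8, 0.29, to Hoxc6, 4.65.

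Hoxd8 went the other way. It was at 6.7, 6.34 and 5.73 CPM in PHD1+/+ and 3.92, 5.85 and 6.29 CPM in PHD1-/- in neurons and at 14.9, 16.4 and 12.9 CPM in PHD1+/+ and 11.8, 12.7 and 16.8 CPM in PHD1-/- in oligodendrocytes. Each library was lower in neurons, with no overlap, and the log2 fold change was -1.32 (SE 0.11, adjusted p = 1.14e-06). Its neighbours in the cluster kept much of their level in oligodendrocytes too. Hoxd4 was at 49.7 ± 19.8 CPM in neurons and 36.5 ± 15.2 CPM in oligodendrocytes (SD, n = 6), a log2 fold change of 0.42 (SE 0.08, adjusted p = 8.66e-04). Hoxd9 was at 7.63 ± 2.68 CPM and 9.03 ± 3.8 CPM and was not called, at -0.25 (SE 0.13, adjusted p = 0.104). Hoxb8 was called with a log2 fold change of 0.29, at 40.5 ± 4.74 CPM and 32.4 ± 3.34 CPM. Hoxd11 stood beside them in the cluster with 3.47 (SE 0.21, adjusted p = 8.22e-08). The noncoding gene Haglr, which lies in the same cluster next to Hoxd1, was also higher in oligodendrocytes, at 39 CPM against 2.5 CPM in neurons, a log2 fold change of -4.34 for neurons (SE 0.36, edgeR adjusted p = 1.08e-06).

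**Figure D3:**
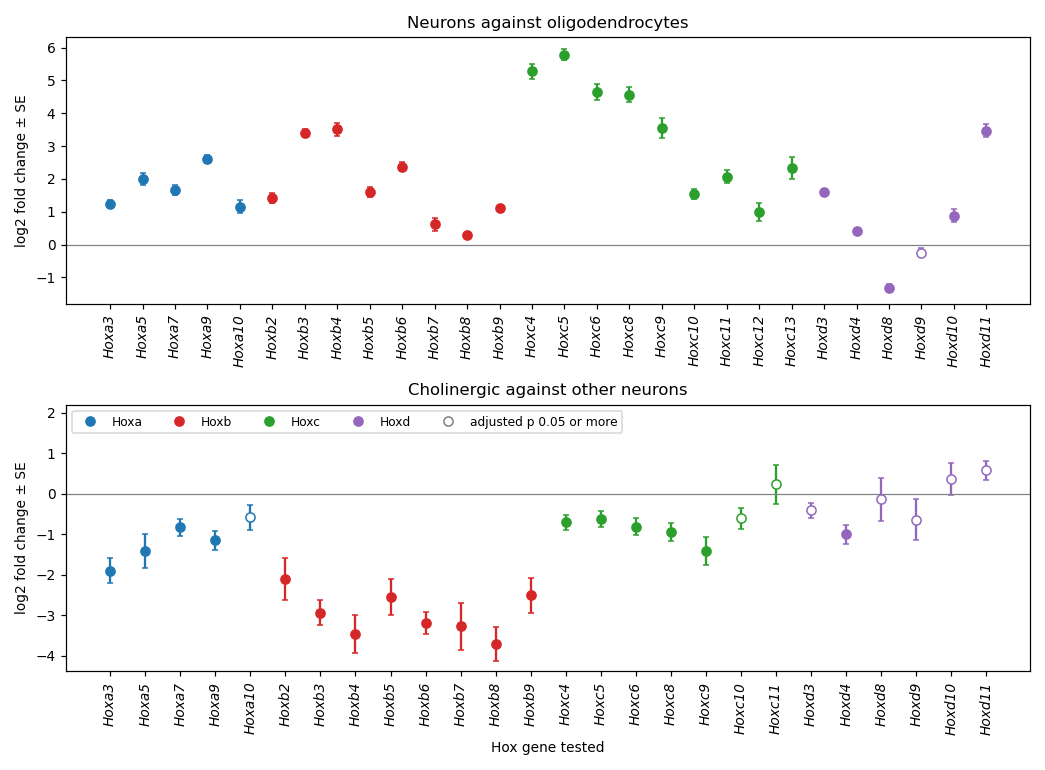
Log2 fold change with its standard error (y axis) of each tested Hox gene (x axis), for neurons against oligodendrocytes (top) and cholinergic against other neurons (bottom). Colour gives the cluster, and open symbols did not pass the threshold. All Hoxc genes lie above 0 at the top with Hoxd8 below, and the 8 Hoxb genes lie lowest at the bottom.

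Oligodendrocyte precursors and astrocytes also had more Hox RNA than oligodendrocytes, most of all of Hoxc genes. Against oligodendrocytes, precursors were higher in 12 and lower in 1 of 18 members tested, with 26.7% of all genes called higher and 27.1% lower. Astrocytes were higher in 18 and lower in 1 of 24, with 26.4% and 27.5% of all genes called. Medians were 1.30 for precursors and 1.87 for astrocytes, beside -0.06 and -0.07 over all genes. Levels did not overlap with oligodendrocytes for 8 members in precursors and 15 in astrocytes, against 28.3% and 28.4% of all genes. Hoxc8 was at 44.2, 34.4 and 35.9 CPM in PHD1+/+ and 26.2, 45.4 and 43.7 CPM in PHD1-/- in precursors and at 7.04, 3.95 and 1.32 CPM in PHD1+/+ and 4.81, 2.98 and 1.62 CPM in PHD1-/- in oligodendrocytes. No library overlapped, and the log2 fold change was 3.49 (SE 0.33, adjusted p = 7.01e-07). All 5 Hoxc and all 5 Hoxa members tested were higher in precursors, among them Hoxc5 at 4.45 (SE 0.30, adjusted p = 2.84e-08), Hoxc4 at 3.97 (SE 0.32, adjusted p = 1.76e-07), Hoxc6 at 3.29 (SE 0.32, adjusted p = 1.04e-06) and Hoxa9 at 2.29 (SE 0.22, adjusted p = 7.76e-07). Hoxb3, at 2.38 (SE 0.26, adjusted p = 3.19e-06), was the Hoxb gene with the smallest adjusted p. In astrocytes the 6 with the smallest adjusted p were Hoxa9 at 3.42 (SE 0.19, adjusted p = 1.21e-08), Hoxc5 at 4.54 (SE 0.27, adjusted p = 1.81e-08), Hoxc6 at 4.48 (SE 0.30, adjusted p = 4.64e-08), Hoxc8 at 3.76 (SE 0.25, adjusted p = 5.42e-08), Hoxc4 at 4.29 (SE 0.31, adjusted p = 1.07e-07) and Hoxb4 at 3.35 (SE 0.27, adjusted p = 2.71e-07).

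Hoxd8 was again lower than in oligodendrocytes, with a log2 fold change of -1.05 (SE 0.31, adjusted p = 0.0114) in precursors and -0.77 (SE 0.26, adjusted p = 0.0251) in astrocytes. Without PHD1+/+ replicate 2 the precursor value was -0.85 and was not called, and leaving out PHD1+/+ replicate 3 or any PHD1-/- replicate left the astrocyte value uncalled, between -0.74 and -0.65. Newly formed oligodendrocytes, 318 nuclei in all, lay between precursors and oligodendrocytes for Hoxc8 at 6.79 ± 8.5 CPM (SD, n = 6), Hoxc4 at 13.1 ± 6.2 CPM (SD, n = 6) and Hoxa9 at 21.7 ± 24.4 CPM (SD, n = 6). Their Hoxd8 was at 17.6 ± 11.4 CPM (SD, n = 6), with a spread over libraries as wide as the gap. Neuron markers summed to 6684 CPM in precursors, 2753 CPM in astrocytes and 929 CPM in oligodendrocytes. Their part in these differences was not tested. With all nuclei thinned to 1000 UMIs, 0 of 2 members tested were called for precursors, 0 of them at an unadjusted edgeR p under 0.05, and 10 of 12 for astrocytes.

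Microglia served as the class outside the neural tube. Oligodendrocytes were higher than microglia in 5 and lower in 1 of 14 members tested, while 29.4% of all genes were called higher and 29.1% lower. Levels did not overlap for 3 members, against 33.7% of all genes. Of the 5 higher, 4 were Hoxd genes. Hoxd4 was at 54.7, 25.9 and 28.3 CPM in PHD1+/+ and 56.6, 21.8 and 31.4 CPM in PHD1-/- in oligodendrocytes and at 27.1, 1.07 and 0 CPM in PHD1+/+ and 15.8, 1.05 and 0 CPM in PHD1-/- in microglia. The microglial UMIs came mostly from the replicate 1 pair, and the classes overlapped through PHD1+/+ replicate 1. The log2 fold change was 2.88 (SE 0.47, adjusted p = 5.00e-04) in 6 libraries and 5.46 (adjusted p = 3.35e-10) in replicates 2 and 3 alone, where microglia had at most 1.07 CPM. Hoxa3 gave 2.31 (SE 0.38, adjusted p = 5.40e-04), Hoxd3 2.33 (SE 0.44, adjusted p = 0.00126) and Hoxd8 2.21 (SE 0.42, adjusted p = 0.00138), each higher in 6 of 6 libraries, and Hoxd9 gave 1.09 (SE 0.29, adjusted p = 0.00957), higher in 5 of 6. Hoxb5 was lower in oligodendrocytes at -0.67 (SE 0.24, adjusted p = 0.035), a call lost without PHD1+/+ replicate 2, PHD1+/+ replicate 3 or PHD1-/- replicate 3 (range -0.64 to -0.53). Between these classes Hoxc10 was the 1 Hoxc gene that passed the filter. In nuclei thinned to 1000 UMIs, 1 of 2 members tested was called.

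Hoxb8 was read in microglia at 32.9, 44.8 and 38.3 CPM in PHD1+/+ and 19, 43 and 43.3 CPM in PHD1-/-. In oligodendrocytes it was at 39.1, 30.8 and 31.6 CPM in PHD1+/+ and 31.5, 31.1 and 30 CPM in PHD1-/-. The classes overlapped, and the log2 difference of oligodendrocytes from microglia was 0.00 (SE 0.17, edgeR adjusted p = 0.99). Its mean stayed between 18.7 and 47.5 CPM in 13 classes and was 2.11 CPM in cholinergic neurons. Hoxc8, its paralogue, was at 3.87, 0 and 1.91 CPM in PHD1+/+ and 12.7, 4.19 and 6.92 CPM in PHD1-/- in microglia. The ratio of Hoxb8 to Hoxc8 UMIs was 10.1 in microglia (151 and 15 UMIs), 9.47 in oligodendrocytes (710 and 75), 4.25 in Schwann cells (51 and 12), 0.832 in astrocytes (149 and 179) and 0.456 in excitatory neurons (1923 and 4216). Per 1000 nuclei, Hoxb8 gave 51.9 UMIs in microglia, 52.8 in oligodendrocytes, 52.1 in Schwann cells and 53.1 in cholinergic neurons. It gave 43.3 in mural cells, 97.1 in astrocytes, 113 in endothelial cells and 224 in excitatory neurons. What share of the microglial UMIs is free RNA was not tested.

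Endothelial cells, which are of mesodermal origin, were compared with microglia on the 4 members that passed the filter. Hoxa7 gave 1.66 (SE 0.34, adjusted p = 3.08e-04), Hoxa9 1.45 (SE 0.44, adjusted p = 0.0092) and Hoxb6 1.26 (SE 0.40, adjusted p = 0.0135), each higher in 6 of 6 libraries. Of all genes tested, 20% were higher and 22.1% lower. Levels did not overlap for 2 members and 22.4% of all genes. The Hoxb6 call was lost without PHD1+/+ replicate 3 or PHD1-/- replicate 1, at 1.03 and 1.07. Hoxb8 was at 43.3 ± 26.6 CPM in endothelial cells and 36.9 ± 9.77 CPM in microglia and was not called. In nuclei thinned to 1000 UMIs no member passed the filter. The endothelial class is small, with 11 nuclei in PHD1-/- replicate 2. Fibroblasts and mural cells of the meninges and vessels had 947 and 254 nuclei. Hoxc4 was at 102 ± 25.7 CPM (SD, n = 6) in fibroblasts and Hoxa9 at 94.3 ± 32.7 CPM (SD, n = 6) in mural cells. Schwann cells of the nerve roots kept Hoxb genes such as Hoxb8 at 43 ± 13.2 CPM (SD, n = 6), with less Hoxc and Hoxd, such as Hoxd3 at 3.02 ± 3.36 CPM (SD, n = 6). Differences of these 3 classes from the rest were not tested.

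**Figure D4:**
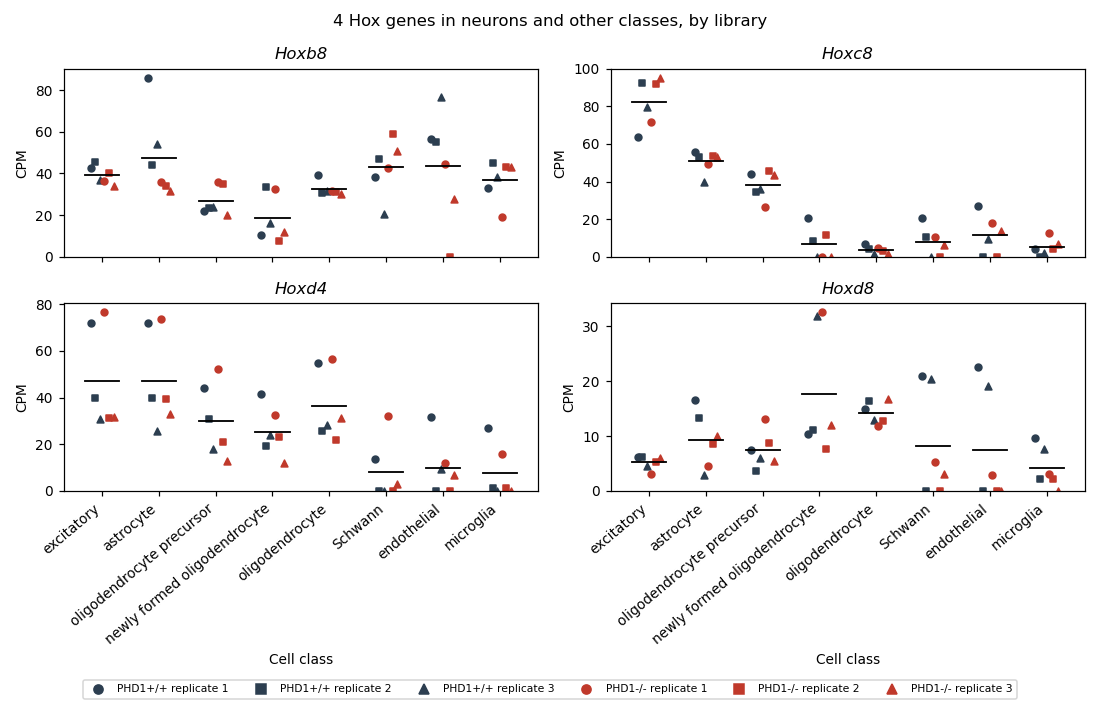
Level in CPM (y axes, each from 0) of Hoxb8, Hoxc8, Hoxd4 and Hoxd8 in 8 cell classes (x axis). Each point is a library, colour gives genotype, the symbol gives the replicate, and bars are means of 6 libraries. Hoxb8 means stay between 18.7 and 47.5 CPM, Hoxc8 is at 82.5 CPM in excitatory neurons and 3.62 CPM in oligodendrocytes, and Hoxd8 is at 5.2 and 14.2 CPM in the same classes.

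Excitatory and inhibitory neurons differed by small amounts. Of 30 members tested, 16 were higher and 3 lower in excitatory neurons, with 19.3% and 18.9% of all genes called, and levels overlapped between the classes for every member tested, against no overlap for 7.46% of all genes. The median was 0.13, beside 0.00 over all genes. Hoxa3 was at 22.9, 55.5 and 48.1 CPM in PHD1+/+ and 33.2, 55.3 and 51 CPM in PHD1-/- in excitatory neurons and at 16.1, 33 and 26.3 CPM in PHD1+/+ and 18.8, 35.5 and 36.3 CPM in PHD1-/- in inhibitory neurons. Each library was higher in excitatory neurons, and the log2 fold change was 0.69 (SE 0.05, adjusted p = 1.06e-12). Hoxa5 followed with 0.49 (SE 0.08, adjusted p = 3.24e-06), Hoxa9 with 0.30 (SE 0.04, adjusted p = 8.43e-07), Hoxb4 with 0.30 (SE 0.06, adjusted p = 3.45e-04), Hoxc6 with 0.26 (SE 0.05, adjusted p = 2.72e-05) and Hoxa7 with 0.23 (SE 0.04, adjusted p = 5.97e-05). Of the 3 lower, Hoxd3 gave -0.23 (SE 0.04, adjusted p = 2.96e-05), Hoxd4 -0.22 (SE 0.05, adjusted p = 8.56e-04) and Hoxb8 -0.16 (SE 0.05, adjusted p = 0.0102), each lower in at least 5 of 6 libraries. These calls rest on comparing classes within a library. Without the library block 1 member was called, DESeq2 called 12, and thinned nuclei gave 8.

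The cholinergic class, in which motor neurons belong, had lower CPM than other neurons for most Hox genes tested. The widest gap was in the Hoxb cluster. Other neurons here are the excitatory and inhibitory classes, without the 996 unresolved neurons. The cholinergic class was small, with 113 nuclei and 11 to 26 in a library, and was named from the markers Chat, Slc5a7, Slc18a3, Prph and Isl1. In the first clustering of all nuclei, a cluster of 380 nuclei and another of 33 scored highest for cholinergic markers. Of the 380, 160 and 145 came from the PHD1+/+ and PHD1-/- replicate 1 libraries, against 11 and 16 of the 113. The class is thus a part of those nuclei, least complete in replicate 1, and the rest were not followed. Of 26 members tested, 0 were higher and 18 lower, while 10.4% of all genes were called higher and 12.4% lower. The median was -0.97, against -0.07 over all genes. All 8 Hoxb members tested were lower, with a median of -3.06. The calls were 4 of 5 for Hoxa (median -1.15), 5 of 7 for Hoxc (median -0.71) and 1 of 6 for Hoxd (median -0.28). The difference between clusters was not tested. Levels did not overlap for 12 members, against 12.1% of all genes.

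Hoxb8 was at 0, 8.31 and 0 CPM in PHD1+/+ and 0, 4.33 and 0 CPM in PHD1-/- in cholinergic neurons and at 47.3, 46.9 and 39.1 CPM in PHD1+/+ and 38.3, 42 and 36.8 CPM in PHD1-/- in other neurons. The 6 UMIs came from the replicate 2 pair, and no library overlapped. The log2 fold change was -3.71 (SE 0.42, adjusted p = 3.39e-08). Hoxb6 was at 10.7, 8.31 and 8.56 CPM in PHD1+/+ and 7.8, 4.33 and 3.21 CPM in PHD1-/- in cholinergic neurons, from 13 UMIs, and at 69.2 ± 15.7 CPM in the others, a log2 fold change of -3.19 (SE 0.27, adjusted p = 1.89e-10). Hoxb4, from 5 UMIs, gave -3.47 (SE 0.46, adjusted p = 8.32e-07), Hoxb3 gave -2.93 (SE 0.31, adjusted p = 1.06e-08) and Hoxb9 gave -2.51 (SE 0.43, adjusted p = 4.14e-05), each lower in 6 of 6 libraries. Of the other clusters, Hoxa3 had the smallest adjusted p, at -1.90 (SE 0.31, adjusted p = 2.54e-05), lower in 5 of 6 libraries. Of Hoxd11, Hoxd10, Hoxc11 and Hoxc10, genes known for the lumbar motor column, none was called. Hoxd11 was at 10.7, 39.5 and 45 CPM in PHD1+/+ and 23.4, 26 and 25.7 CPM in PHD1-/- in cholinergic neurons and at 24.8, 17.2 and 27 CPM in PHD1+/+ and 30.3, 17.7 and 24.6 CPM in PHD1-/- in the others. The classes overlapped, and the log2 fold change was 0.58 (SE 0.24, adjusted p = 0.0907). In replicates 2 and 3 alone it was called higher, at 0.72 (adjusted p = 0.0335). Hoxd10, which specifies hindlimb motor neurons with Hoxc10, gave 0.36 (SE 0.40, adjusted p = 0.576) and Hoxc11 0.23 (SE 0.48, adjusted p = 0.794), from 19 and 15 UMIs, and neither was called. Hoxc10, from 33 UMIs, was lower in 6 of 6 libraries with no overlap, and its log2 fold change of -0.61 (SE 0.26, adjusted p = 0.1) did not pass the threshold.

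Depth differed between these classes, since the median cholinergic nucleus had 7299.5 to 16540 UMIs. CPM is a share of all UMIs, so a lower CPM need not mean fewer UMIs per nucleus. Per 1000 nuclei, Hoxc8 gave 726 UMIs in cholinergic, 491 in excitatory and 532 in inhibitory neurons. Hoxb8 gave 53.1, 224 and 300 in the same order. Other members were not compared per nucleus. With all nuclei thinned to 1000 UMIs, 7 of 22 members were called lower and none higher, with a median of -2.15 beside -0.73 over all genes. Hoxb8 was called lower there too (adjusted p = 0.00531). In cholinergic neurons the TALE partner Meis2 was at 30.7 CPM, against 137 CPM in all neurons. Of 9 TALE genes, 2 were higher and 3 lower, beside 10.4% and 12.4% of all genes. No Hox gene was used to define the class. Chat and Slc5a7 were also among the leading genes of a cluster of 62 inhibitory nuclei, led by Nos1 and Sox6, which was counted among the other neurons. Its summed Hox level was 925 CPM, with Hoxb6 at 86.5 CPM, Hoxb3 at 55.6 CPM and Hoxb8 at 21.4 CPM, against 412, 7.15, 7.06 and 2.11 CPM in the cholinergic class. The difference between these clusters was not tested.

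Neurons were also described by cluster, for 29 clusters of at least 100 nuclei that were named excitatory, inhibitory or cholinergic. Summed Hox levels ran from 412 CPM in the cholinergic cluster to 1737 CPM in an excitatory cluster led by Qrfpr and Tafa1. Hoxa9 ranged from 21.7 to 208 CPM and was highest in an excitatory cluster led by Lmo3, Sox5 and Tac1. Excitatory clusters led by Tafa1, Sox5 and Skor2 (177 CPM) and by Qrfpr (174 CPM) came next. Hoxb6 ranged from 7.15 to 166 CPM and peaked in a cluster led by the peptide genes Tac2 and Nmu. Hoxc8 ranged from 19.1 CPM, in an inhibitory cluster led by Rorb, to 157 CPM. The same Rorb cluster had the highest Hoxb8, at 149 CPM, and Hoxc11 without a UMI.

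Hoxd11 split the clusters into a high and a low set. It was at 20 CPM or more in 8 clusters with 6247 nuclei, of which 4 were excitatory, 3 inhibitory and 1 cholinergic, and the cut was chosen after the values were seen. The 3 highest were an inhibitory cluster led by Foxp2, Slc6a5 and Zfhx3 (42.3 CPM), an excitatory cluster led by Zfhx3 and Il1rapl2 (41.1 CPM) and an excitatory cluster led by Lrmda and Meis2 (39.5 CPM). Inside the cut lay clusters at 21 and 28.4 CPM, and just outside it clusters at 19.3 and 12.3 CPM. Clusters with peptide genes among their leading genes lay in both sets. Those led by Nts, by Npy, and by Gal with Pdyn were at 5.55, 3.21 and 2.35 CPM, while excitatory clusters with Meis2 and Tac1 and with Nms and Pdyn were at 36 and 35.9 CPM. Hoxd10 and Hoxc11 ran with Hoxd11 over the clusters, with a Spearman rho of 0.78 and 0.70 (n = 29 clusters from the same 6 libraries). Hoxb8 ran the other way at -0.48, and was 10.8 to 16.5 CPM in the 3 clusters with the highest Hoxd11. Hoxb8 was at a median of 27 CPM in the high set and 60.4 CPM in the low set, where its lowest value was 32.6 CPM. Hoxb8 went with the other Hoxb genes, at a rho of 0.83 with Hoxb5, 0.82 with Hoxb3 and 0.81 with Hoxb6, while its rho with Hoxc8 was -0.30. The gene Zfhx3, known from neurons with long projections in the cord and picked after the clusters were seen, had a rho of -0.77 with Hoxb8 and 0.41 with Hoxd11. These are descriptions of clusters that share libraries and depth, and no test was made.

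**Figure D5:**
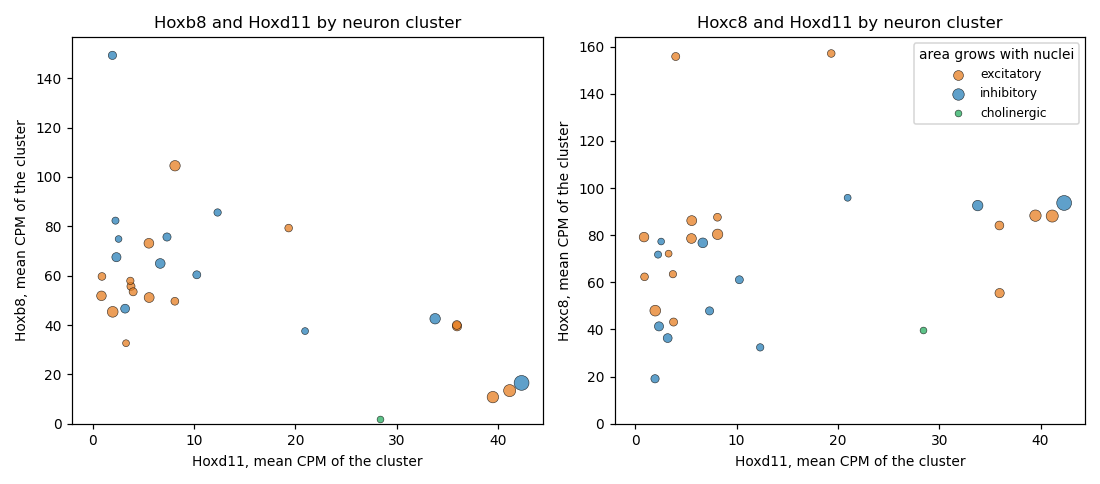
Mean CPM of Hoxb8 (left, y axis) and Hoxc8 (right, y axis) against Hoxd11 (x axes) in 29 neuron clusters. Colour gives the transmitter class and the area of a point grows with its number of nuclei. The 3 clusters with Hoxd11 between 39.5 and 42.3 CPM have Hoxb8 between 10.8 and 16.5 CPM and Hoxc8 between 88.1 and 93.7 CPM, and the cholinergic cluster lies at the bottom of the left panel.

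Loss of PHD1 was the study's comparison. No Hox gene was called in any of the 8 genotype comparisons (edgeR, adjusted p under 0.05), and without a block for the littermate pairs 0 genes of any kind were called, with 96 of 19303 genes (0.497%) at an unadjusted p under 0.05 over all nuclei and none of them a Hox gene. DESeq2 called 0 Hox genes too. Within classes, the share of all genes at an unadjusted p under 0.05 was 0.8% in oligodendrocytes, 0.451% in excitatory neurons, 0.576% in inhibitory neurons and 0.57% in astrocytes. It was 0.489% in microglia, 1.11% in precursors and 0.923% in endothelial cells. The Hox genes under it were Hoxc10 in oligodendrocytes, Hoxb8 in astrocytes and Hoxc5 in precursors. The edgeR adjusted p was 1.00 for each of the Hox genes tested in these fits without the block. Over all nuclei, 9 of 35 members had a positive and 26 a negative log2 fold change for PHD1-/-, with a median of -0.09 against -0.01 over all genes, and no member separated the genotypes, against 4% of all genes. The 5 with the smallest unadjusted p were Hoxd10 at -0.40 (SE 0.24, edgeR adjusted p = 1.00), Hoxc11 at -0.37 (SE 0.23), Hoxb8 at -0.24 (SE 0.16), Hoxd8 at -0.30 (SE 0.24) and Hoxb9 at -0.19 (SE 0.17). Hoxd10 was at 10.2, 7.2 and 9.25 CPM in PHD1+/+ and 7.25, 5.35 and 7.67 CPM in PHD1-/-, and the genotypes overlapped. A change in the share of a cell class and a change in RNA per nucleus cannot be told apart in values over all nuclei.

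With the littermate pair as a replicate block, more genes passed in the genotype comparisons. At an adjusted p under 0.05, edgeR then called 41 genes in excitatory neurons (35 lower in PHD1-/-), 67 in inhibitory neurons (66 lower), 1 in astrocytes and 0 over all nuclei, with no Hox gene among them. At an unadjusted p under 0.05, the block gave 2 of 35 members (5.95% of all genes) over all nuclei, 3 of 20 members (8.1% of all genes) in oligodendrocytes, 0 of 32 members (8.94% of all genes) in excitatory neurons and 2 of 31 members (9.05% of all genes) in inhibitory neurons. It gave 1 of 15 members (5.47% of all genes) in astrocytes, 1 of 14 members (5.7% of all genes) in precursors and 0 of the 1 member tested (4.34% of all genes) in microglia. In endothelial cells, where no member was tested, it gave 3.76% of all genes. Over all nuclei these were Hoxd10 at -0.39 (SE 0.14, edgeR adjusted p = 0.817) and Hoxc11 at -0.38 (SE 0.15, edgeR adjusted p = 0.817). In oligodendrocytes they were Hoxa10 at -0.78 (SE 0.24, edgeR adjusted p = 0.466), Hoxc10 at -0.77 (SE 0.26, edgeR adjusted p = 0.52) and Hoxb6 at -0.48 (SE 0.21, edgeR adjusted p = 0.595), and in inhibitory neurons Hoxb6 at -0.25 (SE 0.08, edgeR adjusted p = 0.292) and Hoxa3 at 0.27 (SE 0.12, edgeR adjusted p = 0.485). In astrocytes Hoxb8 was at -0.84 (SE 0.29, edgeR adjusted p = 0.786), and in precursors Hoxc5 was at 1.05 (SE 0.36, edgeR adjusted p = 0.741). None of these adjusted p-values passed, and Hoxb6 and Hoxa3 are named here after their values were seen.

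Within classes, the lists were short. In oligodendrocytes 19 of 20 members had a negative log2 fold change, with a median of -0.46 against -0.01 over all genes. The median was -0.34 with the replicate block, -0.11 without PHD1+/+ replicate 1 and -0.11 in replicates 2 and 3 alone. That library had the highest summed Hox level in oligodendrocytes, above a range of 214 to 274 CPM in the other 5. Hoxc10 was at 17.2, 9.28 and 12.2 CPM in PHD1+/+ and 5.88, 7.61 and 6.77 CPM in PHD1-/- in oligodendrocytes. PHD1-/- lay below PHD1+/+ in each library, with a log2 fold change of -0.89 (SE 0.32, unadjusted p = 0.0235), and the genotypes did not overlap for 5.73% of all genes in either direction. Hoxa10 gave -0.88 (SE 0.49, unadjusted p = 0.111). In excitatory neurons, Hoxa2 gave 0.52 (SE 0.30, unadjusted p = 0.129), with no overlap, beside 4.47% of all genes, and Hoxc11 -0.40 (SE 0.25, unadjusted p = 0.16), and in inhibitory neurons Hoxa2 gave 0.84 (SE 0.53, unadjusted p = 0.157) and Hoxb9 -0.31 (SE 0.20, unadjusted p = 0.16). No member separated the genotypes in inhibitory neurons, against 4.73% of all genes. The neuronal medians were -0.01 over 32 members and -0.07 over 31, and with a single library left out they ranged from -0.11 to 0.03 and from -0.15 to -0.08.

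In astrocytes, the class named in the study's title, 15 members were tested and the median was 0.08. Its sign rested on single libraries. Leaving out PHD1+/+ replicate 3 gave a median of -0.07, leaving out PHD1-/- replicate 1 gave -0.025, and leaving out PHD1-/- replicate 3 gave 0.19. Hoxb8 was at 86, 43.9 and 54.1 CPM in PHD1+/+ and 35.7, 33.9 and 31.4 CPM in PHD1-/-. All PHD1-/- libraries lay below all PHD1+/+ libraries, as they did in either direction for 4.84% of all genes, and the log2 fold change was -0.87 (SE 0.37, unadjusted p = 0.0421), edgeR adjusted p = 1.00. Hoxb6 gave 0.44 (SE 0.41, unadjusted p = 0.306). In oligodendrocyte precursors the median over 14 members was 0.28 (0.12 to 0.33 with a single library left out). Hoxc5 gave 1.05 (SE 0.39, unadjusted p = 0.0247), with no overlap, beside 5.71% of all genes, and Hoxb6 gave 0.58 (SE 0.41, unadjusted p = 0.184). In microglia Hoxb8 was the member that passed the filter, at -0.12 (SE 0.33, unadjusted p = 0.735). The genotypes overlapped for it, beside no overlap for 4.28% of all genes. In endothelial cells no member passed the filter, and 5.09% of all genes did not overlap. No genotype test was run in cholinergic neurons. Their summed Hox level was 363, 565 and 364 CPM in PHD1+/+ and 375, 456 and 349.9 CPM in PHD1-/-, with overlapping genotypes.

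Genes that act with or upstream of Hox genes were read in the same fits. None of these lists had a gene called for PHD1 genotype over all nuclei. Of 9 TALE cofactor genes, 5 of 9 tested were positive (median 0.06). Of 32 Polycomb and trithorax genes, whose proteins hold Hox clusters silent or open, 21 of 32 tested were positive (median 0.04). Of 18 upstream patterning genes such as Cdx and retinoic acid genes, 3 of 11 tested were positive (median -0.08), and of 10 motor column genes, 3 of 8 tested were positive (median -0.10). Of 10 rostral homeobox genes, 1 of 2 tested were positive (median -0.20). The 13 mitochondrial genes, a sign of cytoplasmic RNA in nuclei, had 12 negative values and a median of -0.46. The 18 other genes inside the Hox clusters, mostly noncoding, had 13 tested, 11 of them negative (median -0.12). Between neurons and oligodendrocytes, where 41.9% of all genes were higher and 38.9% lower, counts for these lists were read beside those shares. Of the 9 TALE genes tested, 7 were higher and 2 lower in neurons than in oligodendrocytes, and of the 11 other Hox cluster genes tested 7 were higher and 2 lower. Of the 30 Polycomb and trithorax genes tested 11 were higher and 11 lower, near the shares over all genes. The 1 rostral homeobox gene tested was lower in neurons, with a log2 fold change of -6.98. Hoxb3os, a noncoding gene of the Hoxb cluster, was at 148 CPM in mural cells, 105 CPM in Schwann cells and 60.1 CPM in astrocytes, against 2.72 CPM in oligodendrocytes. Its log2 fold change for astrocytes against oligodendrocytes was 4.47 (SE 0.35, edgeR adjusted p = 2.14e-07).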

How the data were processed

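The authors deposited UMI counts per gene and nucleus for 6 libraries, made with Cell Ranger 5.0.1 per the file headers (5.0.2 in the submitters' processing notes, which also name mm10 and Scanpy 1.8.1). From these counts, nuclei with at least 500 UMIs, 300 genes and at most 5% mitochondrial UMIs were kept. Nuclei marked as doublets by Scrublet were removed, but in the replicate 1 libraries the caller marked only 0 and 1 nuclei. Nuclei were clustered without the Hox cluster genes (Scanpy 1.11.5, 2000 variable genes, 30 components, Leiden resolution 1), and neurons clustered again. Class rules were set after the clusters were seen. Sums of UMIs over the nuclei of each class in a library went into edgeR 4.0.16 (quasi-likelihood, TMM, filterByExpr, Benjamini-Hochberg over all genes tested), comparing genotypes without a block and classes with library as block. The authors' cell annotation was not used here.

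Same-numbered libraries are littermates, per the labels' protocols, and their deviations from the genotype mean correlated at 0.83, 0.64 and 0.52 over 19303 genes. Unlike-numbered libraries of replicates 2 and 3 also correlated, at 0.48 and 0.39, and those with a replicate 1 library at -0.72 to -0.54. Replicate 1 is part of each mean, so these values cannot show that pairs 2 and 3 deviated as litters. All 39 members entered the sums and fits, and values of 1 of them are not reported here. Genes were named by a rule: the 12 highest by CPM, the 6 smallest adjusted p-values per direction and class comparison, and the 5 (all nuclei) or 2 (class) smallest p-values by genotype. The members, lists and rules were chosen with earlier results of these data known. DESeq2 1.42.0, other scalings and filters, thinned nuclei and left-out libraries were alternatives.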

Additional observations from a re-analysis of the deposited data

How the results depend on the processing

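The 8 genotype comparisons gave 0 Hox calls under every alternative run, the replicate block included. The replicate block changed no Hox call (0 with and without it) and raised the calls over all genes from 0 to 41 in excitatory neurons, 67 in inhibitory neurons and 1 in astrocytes. Leaving out each library gave 0 calls there, 26 to 29 (27 with all 6) for neurons against oligodendrocytes, 16 to 19 (19 with all 6) for excitatory against inhibitory neurons, 17 to 19 (18 with all 6) for cholinergic neurons, 12 to 14 (13 with all 6) for precursors, 17 to 20 (19 with all 6) for astrocytes, 5 to 7 (6 with all 6) for oligodendrocytes against microglia and 2 to 4 (3 with all 6) for endothelial cells. Excitatory against inhibitory calls fell to 12 with DESeq2, 1 without the library block and 8 in thinned nuclei. Thinning, which leaves fewer UMIs and fewer genes tested, gave 7 calls for cholinergic neurons, 0 for precursors, 10 for astrocytes, 1 for oligodendrocytes against microglia and 0 for endothelial cells. Without the low-count filter precursors had 20 and endothelial cells 8 calls. The summed Hox level over all nuclei was 668 CPM when each nucleus counted alike (779 to 795 with a library left out), and the share of nuclei with a Hox UMI was 73% at 2000 UMIs and 63.4% unthinned. The genotype sign turned for Hoxd8 over all nuclei (0.0015) and for microglial Hoxb8 (0.017) in replicates 2 and 3 alone, for Hoxb8 also in nuclei of at least 1000 UMIs (0.084). With single libraries left out, microglial Hoxb8 ranged from -0.29 to 0.088 and astrocyte Hoxb6 from -0.030 to 0.67. Apart from the thinning and filter changes, the cause was not tested. With 3 libraries a group the precision for genotype is limited, and classes of few UMIs (cholinergic, endothelial, mural) leave most Hox genes near the level of a few UMIs.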
